A study of Mus musculus with 24 samples.

Results

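Fastk, Arhgap45, Fgf13, Paqr5, Abcg3 and Asb4 are 6 mouse genes listed because the change of their RNA on loss of Bap1 differed between LSK cells and myeloid progenitors on these arrays. They were matched by symbol to the platform's annotation, where Arhgap45 is written HMHA1, and each had exactly 1 probe, so that the list took 6 of 22439 probes and 6 of 17741 named genes. The 6 genes were selected on the log2 values shown here, through the knockout minus wild type change in one population against that in the other, so for them this difference, and the change within either population, are given as a description with a standard error and no test. For Arhgap45 the arrays went against the label, because the change in myeloid progenitors rested on 2 of the 24 arrays.

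The arrays held RNA from sorted bone marrow cells of C57BL/6 mice in 4 groups: LSK cells from Bap1 knockout (KO) mice, LSK cells from wild-type (WT) mice, myeloid progenitors from KO mice and myeloid progenitors from WT mice. Both gates take lineage-negative cells with Kit on their surface, LSK cells with Sca1 as well and myeloid progenitors without it, and the LSK gate enriches stem cells. Per the labels' protocols, tamoxifen was injected to delete Bap1 throughout the body. The labels do not name the Cre driver or the age of the mice, and they state the tamoxifen treatment without separating WT from KO mice. There were 2 mice in a group, and RNA of every mouse was put on 3 arrays. No mouse gave both populations, so population and mouse differ together, and the arrays of a mouse are repeat measurements rather than further mice. In sorted bulk samples, fewer cells of a type and less RNA per cell cannot be told apart.

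BAP1 is a deubiquitinase that takes ubiquitin off histone H2A and so acts opposite to Polycomb repressive complex 1. Hematopoietic stem cells lie within the LSK gate, and myeloid progenitors arise from it as Sca1 is lost. The 6 genes have unrelated products. Fastk encodes an RNA-binding protein of mitochondria and nuclear speckles, Arhgap45 a GTPase-activating protein that is abundant in blood cells, and Fgf13 a fibroblast growth factor homologous factor, which stays inside the cell and binds voltage-gated sodium channels. Paqr5 encodes a membrane progestin receptor, Abcg3 a member of the ATP-binding cassette G family of transporters, and Asb4 an ankyrin repeat and SOCS box protein that brings substrates to cullin 5 ubiquitin ligases.

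Paqr5, Abcg3 and Asb4 moved together over the mice, with lower values in KO than in WT LSK cells and low values in myeloid progenitors. All 3 were chosen on the same difference between populations, so part of their likeness comes with the choice. The 250 bases before the first annotated start of each, from RefSeq on GRCm38.p6, are shown because these 3 genes share a pattern. The windows lie at chr9:62026791-62027040 on the minus strand for Paqr5, chr5:104982718-104982967 on the minus strand for Abcg3 and chr6:5383136-5383385 on the plus strand for Asb4. Each is printed 5′ to 3′, and capitals mark GC-box letters (GGGCGG or its reverse complement).
Paqr5: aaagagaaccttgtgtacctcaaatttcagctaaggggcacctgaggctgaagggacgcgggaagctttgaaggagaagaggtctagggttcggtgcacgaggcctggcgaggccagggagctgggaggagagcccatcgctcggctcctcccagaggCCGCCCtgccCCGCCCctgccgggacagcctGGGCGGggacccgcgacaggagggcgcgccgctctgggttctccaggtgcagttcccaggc
Abcg3: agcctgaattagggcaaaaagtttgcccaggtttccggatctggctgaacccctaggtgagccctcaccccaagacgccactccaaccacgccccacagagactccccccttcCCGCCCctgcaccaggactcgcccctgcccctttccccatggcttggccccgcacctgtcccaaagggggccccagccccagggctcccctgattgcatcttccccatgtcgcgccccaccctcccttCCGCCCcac
Asb4: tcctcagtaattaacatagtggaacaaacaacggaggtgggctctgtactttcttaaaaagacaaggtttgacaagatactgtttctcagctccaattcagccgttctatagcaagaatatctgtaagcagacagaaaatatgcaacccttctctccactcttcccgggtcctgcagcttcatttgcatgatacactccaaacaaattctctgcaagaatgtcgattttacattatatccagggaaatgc

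The 3 windows were unlike in base composition. Paqr5 held 3 GC-box matches at a GC content of 66.8%, Abcg3 held 2 at 66.4%, and Asb4 held 0 at 40.8%. Over all 32817 promoter windows of this length, 32.7% held a GC box, and the median GC content was 52.4%. None of the 3 windows held the GATA letters AGATAA or their variants, which are TGATAA as well as AGATAG as well as TGATAG (26.6% of all windows), the E-box CACGTG (6.02%), the ETS letters GGAAGT (19.7%) or the cyclic AMP response element TGACGTCA (1.55%), each searched on both strands. The letters describe these windows and were not tied to any factor.

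All values are log2 expression values as the authors deposited them, and they run from 5.66 to 15.93. The lower quartile of the probes on an array was 6.15 to 6.18, so that values under 6.5 are near the low end of the scale, where a change is hard to measure. The 24 arrays had nearly the same distribution. The median correlation between arrays, over probes, was 0.994 within a mouse, 0.987 between mice of a group, 0.978 between the genotypes of a population and 0.960 between populations. The Bap1 probe read 11.96 and 11.84 in KO LSK cells, against 11.55 and 11.45 in WT LSK cells, and 11.67 and 11.85 in KO myeloid progenitors, against 11.54 and 11.59 in WT myeloid progenitors. It was not lower in KO mice. Whether the probe lies in the deleted part is not stated in these sources, and the reading therefore does not check the labels. Kdm5d, which lies on the Y chromosome, was 5.93 to 6.03 in 6 mice, all 4 KO mice among them, but 7.88 in mouse 1 of the WT LSK group and 8.15 in mouse 5 of the WT myeloid progenitor group. This Y-linked signal was thus seen in WT mice alone, so it goes partly together with genotype in the KO minus WT change of each population.

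The populations were checked against marker lists. The mean of 8 measured LSK and stem cell markers was 11.78 to 11.92 in KO LSK cells and 11.99 to 12.37 in WT LSK cells, and 9.97 to 10.12 in KO myeloid progenitors and 9.80 to 9.98 in WT myeloid progenitors. Ly6a, which encodes Sca1 itself, was not analysed here. The mean of 7 myeloid progenitor markers was 12.15 to 12.50 in KO LSK cells and 11.35 to 11.98 in WT LSK cells, and 13.24 to 13.46 in KO myeloid progenitors and 13.54 to 13.65 in WT myeloid progenitors. Within LSK cells the list mean of the KO mice was thus higher for the myeloid list and lower for the stem cell list, with no overlap. The genes of a list did not all move alike. Elane, Ctsg and Cebpe, 3 of the 7 myeloid genes, were called higher, while Csf1r was lower (-0.53, not called). Of the 8 stem cell genes 0 were called, and Flt3 (0.16) and Mecom (0.24) were higher in KO mice. The mean of 7 measured B cell markers was lower in KO mice in both populations. It was 7.46 to 7.72 in KO LSK cells and 9.29 to 9.40 in WT LSK cells. In myeloid progenitors it was 7.64 to 7.72 in KO mice and 8.86 to 9.19 in WT mice. Ebf1, Vpreb1 and Igll1, 3 of the 7, were called lower in each population. The other genes of the list were not called, and Pax5 was higher in KO LSK cells (0.10). Over all 17741 genes, 309 were called higher and 515 lower in LSK cells, and 161 higher and 308 lower in myeloid progenitors. In the difference between populations 0 of the 64 measured marker genes of all lists passed in limma. An unadjusted p under 0.05 was seen in 13 of the 64, and in 1126 of all 17741 genes, a smaller share. The markers were chosen with earlier results of these data known, so nothing is read from these 2 counts side by side. Over all 11 lists, KO and WT mice did not overlap in 5 in LSK cells and in 9 in myeloid progenitors. With 2 mice against 2, such separation often arises by chance. The share of all genes with such separation was not counted, so nothing is read from the counts of lists. Dendritic cell markers averaged 7.80 to 8.15 in KO LSK cells and 8.29 to 8.49 in WT LSK cells. Of these 5 genes 1 was called lower (Spib), while Cd209d was higher (0.32, not called). In myeloid progenitors, megakaryocyte markers averaged 9.80 to 9.97 in KO mice and 9.19 to 9.22 in WT mice. Of these 6 genes 2 were called higher and 1, Pf4, was called lower (-1.23). Monocyte and macrophage markers averaged 9.11 to 9.22 in KO mice and 9.62 to 9.71 in WT mice there. Of the 4 measured genes 2 were called lower, while Cd68 was higher (0.76, not called). Basophil and mast cell markers averaged 11.24 to 11.42 in KO mice and 11.55 to 11.56 in WT mice. Of these 5 genes 1 was called higher (Mcpt8, 1.46) and 1 lower (Prss34, -1.73), so the list had no single direction. Mature neutrophil markers averaged 11.01 to 11.18 in KO mice and 10.61 to 10.83 in WT mice, with 0 of 6 genes called. The lists given in these last sentences were among those without overlap, while others overlapped, such as the erythroid list in both populations. With 2 mice against 2, their separation is not read as an effect of the genotype. The part of the lists in the values below was not tested.

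**Figure D1:**
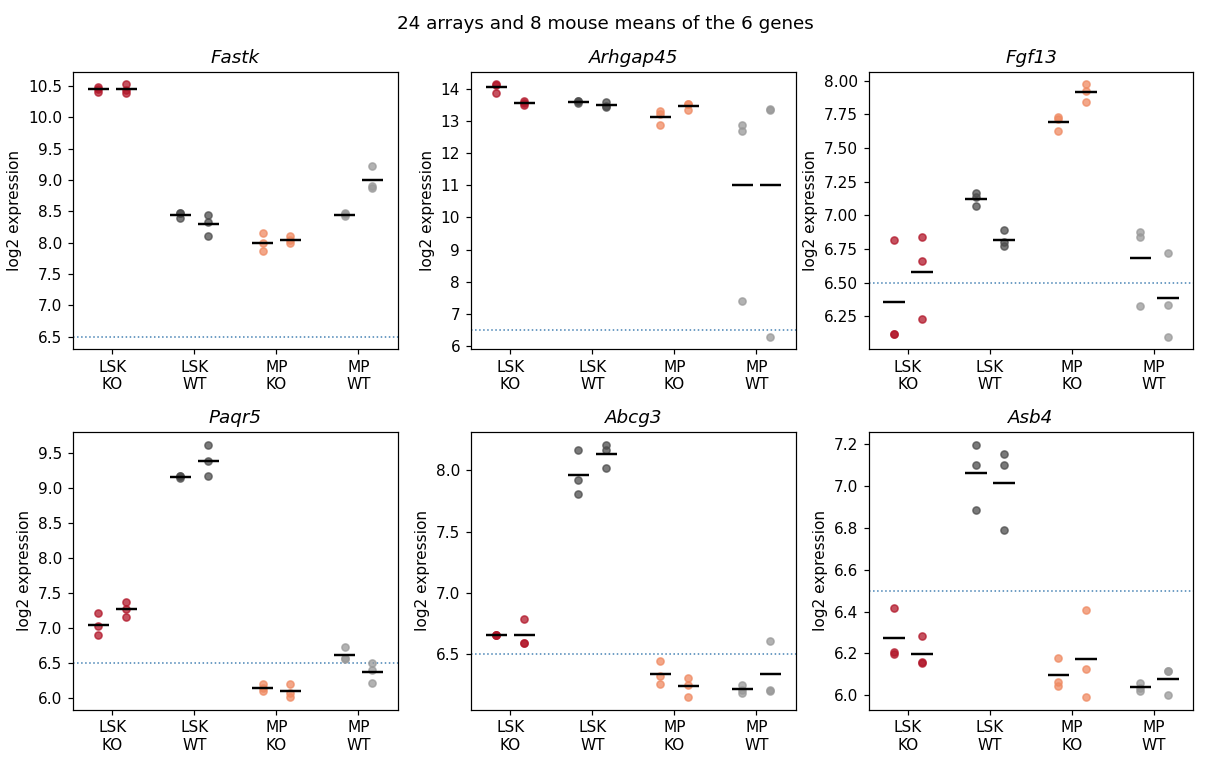
Log2 expression of the 6 genes (vertical axis, 1 panel a gene, each with its own range) in KO and WT LSK cells and KO and WT myeloid progenitors (MP). Points are arrays in a column for each mouse, short bars are mouse means, and the dotted line is 6.5 log2. The Arhgap45 panel shows the 2 low WT myeloid progenitor arrays, and the Paqr5, Abcg3 and Asb4 panels show WT LSK cells standing above the other 3 groups.

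A pair of arrays has to be set apart for Arhgap45 before its comparisons are read. In WT myeloid progenitors its probe read 12.71, 7.39 and 12.90 on the 3 arrays of mouse 5, and 13.39, 6.28 and 13.36 on those of mouse 6. On array 2 of each mouse the value was thus more than 5 log2 below the other arrays of the same RNA source, and the SD over the arrays was 3.13 for mouse 5 and 4.10 for mouse 6. The mouse means nevertheless came out nearly equal (10.998 and 11.01), and the SD between mice was only 0.0097, a spread that hides the one within mice. Over the whole platform, 179 of 22439 probes (0.798%) had a range of more than 3 log2 within at least 1 mouse, and the Arhgap45 probe was the only one that lay more than 3 log2 below both other arrays on array 2 of mouse 5 and of mouse 6. The cause of the 2 low readings was not tested.

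With all arrays, Arhgap45 averaged 14.06 and 13.57 in KO LSK mice, against 13.61 and 13.50 in WT LSK mice, and 13.15 and 13.48 in KO myeloid progenitor mice, against 10.998 and 11.01 in WT myeloid progenitor mice. The KO minus WT change was 0.26 ± 0.21 (log2, SE) in LSK cells, where the mice overlapped, and 2.31 ± 0.21 in myeloid progenitors. The difference, LSK minus myeloid progenitors, was -2.05 ± 0.29. Without array 2 of mouse 5 and mouse 6, an alternative chosen after seeing the data, the WT myeloid progenitor mice read 12.80 and 13.38. The change was then 0.26 ± 0.24 in LSK cells and 0.23 ± 0.24 in myeloid progenitors, and the difference was 0.03 ± 0.33. With the median of each mouse's arrays, the difference was -0.05 ± 0.36. On the other 22 arrays, the changes in both populations were thus about the size of their standard errors.

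**Figure D2:**
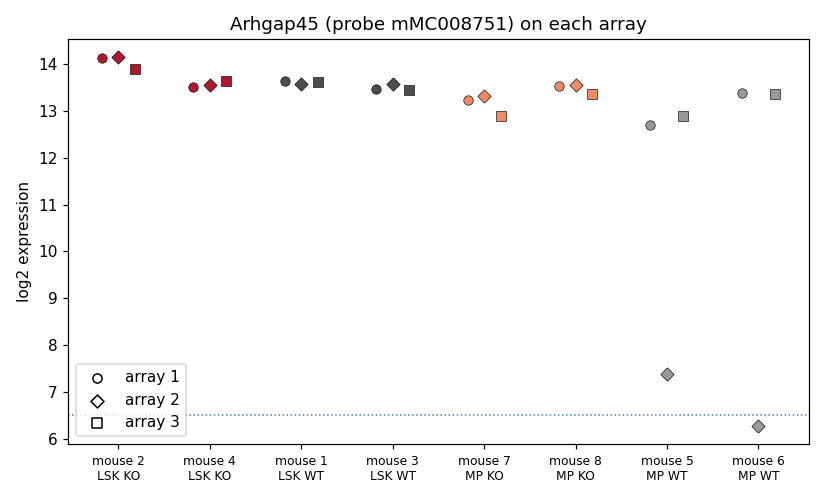
Arhgap45 log2 expression (vertical axis) on each array, in a column for each mouse of the KO and WT LSK and KO and WT myeloid progenitor (MP) groups. Marker shapes give the array number, and the dotted line is 6.5 log2. The arrays at 7.39 and 6.28 in WT myeloid progenitors are the second of mouse 5 and of mouse 6, and the other 22 arrays lie between 12.71 and 14.15.

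Fastk had its highest values in KO LSK cells and its lowest in KO myeloid progenitors. It read 10.41, 10.48 and 10.45 on the arrays of mouse 2 and 10.44, 10.52 and 10.39 on those of mouse 4 in KO LSK cells, against 8.39, 8.47 and 8.48 in mouse 1 and 8.10, 8.33 and 8.45 in mouse 3 in WT LSK cells. In myeloid progenitors it read 8.15, 7.99 and 7.87 in mouse 7 and 8.04, 8.11 and 7.99 in mouse 8 in KO mice, against 8.47, 8.42 and 8.46 in mouse 5 and 8.88, 8.91 and 9.22 in mouse 6 in WT mice. All 6 KO arrays lay above all 6 WT arrays in LSK cells, and all 6 KO arrays lay below all 6 WT arrays in myeloid progenitors. No value was under 6.5.

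The Fastk change was 2.08 ± 0.23 log2 in LSK cells (4.22-fold), from means of 10.45 ± 0.0036 in KO mice and 8.37 ± 0.11 in WT mice (SD, n = 2 each). In myeloid progenitors it was -0.70 ± 0.23, from means of 8.02 ± 0.031 in KO mice and 8.72 ± 0.39 in WT mice. The WT mice were far apart there, and the change was -0.98 without mouse 5 and -0.42 without mouse 6. The difference, 2.78 ± 0.32, ranked 7 by size among 17741 genes. In order of level, KO LSK cells came first, then WT myeloid progenitors and WT LSK cells, whose arrays overlapped and whose mouse means (8.447 to 9.001 and 8.290 to 8.446) nearly touched, and then KO myeloid progenitors.

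Fgf13, on the X chromosome, was lower in KO than in WT LSK cells and higher in KO than in WT myeloid progenitors. KO LSK arrays read 6.12, 6.82 and 6.12 in mouse 2 and 6.66, 6.23 and 6.84 in mouse 4, against 7.14, 7.07 and 7.17 in mouse 1 and 6.89, 6.77 and 6.80 in mouse 3 of the WT LSK group. KO myeloid progenitor arrays read 7.63, 7.73 and 7.71 in mouse 7 and 7.93, 7.84 and 7.97 in mouse 8, against 6.84, 6.87 and 6.33 in mouse 5 and 6.72, 6.33 and 6.10 in mouse 6 of the WT group. The myeloid progenitor arrays did not overlap, while in LSK cells the mouse means were apart but the arrays overlapped. Of 6 arrays each, 3 in KO LSK cells and 3 in WT myeloid progenitors were under 6.5.

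The Fgf13 change was -0.51 ± 0.17 in LSK cells and 1.27 ± 0.17 in myeloid progenitors (2.41-fold), a difference of -1.78 ± 0.23 that ranked 47. Its level was highest in KO myeloid progenitors (7.80 ± 0.16, SD, n = 2 mice) and next in WT LSK cells (6.97 ± 0.22). WT myeloid progenitors (6.53 ± 0.21) and KO LSK cells (6.46 ± 0.16) came last, and their mice overlapped. Because the lower group in each population is near the low end of the scale, the sizes of both changes are less certain.

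Paqr5 had its highest values in WT LSK cells and lay near the low end of the scale in myeloid progenitors. KO LSK arrays read 7.22, 6.90 and 7.03 in mouse 2 and 7.38, 7.27 and 7.17 in mouse 4, against 9.17, 9.16 and 9.14 in mouse 1 and 9.38, 9.61 and 9.17 in mouse 3 of the WT LSK group. Mouse means in myeloid progenitors were 6.15 and 6.10 in KO mice, against 6.62 and 6.38 in WT mice. KO values were below WT values in both populations, on the arrays as well as in the mouse means. However, all 6 KO and 2 of 6 WT myeloid progenitor arrays were under 6.5.

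The Paqr5 change was -2.11 ± 0.16 in LSK cells, a 4.31-fold lower level in KO mice, and -0.37 ± 0.16 in myeloid progenitors. The difference was -1.74 ± 0.23, rank 51. WT LSK cells stood first (9.27 ± 0.16, SD, n = 2 mice), then KO LSK cells (7.16 ± 0.15), WT myeloid progenitors (6.498 ± 0.17) and KO myeloid progenitors (6.13 ± 0.040), with no overlap of mice between neighbours in that order. With values below 6.5 set to 6.5 the myeloid progenitor change was -0.06, so that most of it lay below that level.

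Abcg3 followed the same order at the top. KO LSK mice read 6.66 and 6.66, against 7.97 and 8.13 in WT LSK mice, with no overlap of arrays. KO myeloid progenitor mice read 6.34 and 6.24, against 6.22 and 6.34 in WT myeloid progenitor mice, and these overlapped. There all 6 KO arrays and 5 of 6 WT arrays were under 6.5. The change was -1.39 ± 0.12 in LSK cells, 2.62-fold lower in KO mice, and 0.01 ± 0.12 in myeloid progenitors. The difference of -1.40 ± 0.18 ranked 116. A change in myeloid progenitors could not be measured well, since both genotypes lay at the low end.

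Asb4 stood above 6.5 in WT LSK cells alone among the 4 groups. KO LSK arrays read 6.42, 6.20 and 6.21 in mouse 2 and 6.16, 6.15 and 6.28 in mouse 4, against 6.89, 7.20 and 7.10 in mouse 1 and 6.79, 7.10 and 7.15 in mouse 3 of the WT LSK group. KO myeloid progenitor mice read 6.10 and 6.18, against 6.04 and 6.08 in WT myeloid progenitor mice. The LSK arrays of the genotypes did not overlap, the myeloid progenitor arrays did, and all 18 arrays outside WT LSK cells were under 6.5. The change was -0.80 ± 0.086 in LSK cells and 0.08 ± 0.086 in myeloid progenitors, and the difference of -0.88 ± 0.12 ranked 537. With values below 6.5 set to 6.5 the difference was -0.54.

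The LSK minus myeloid progenitor level was 1.03 in KO mice and 2.77 in WT mice for Paqr5, 0.37 in KO mice and 1.77 in WT mice for Abcg3, and 0.10 in KO mice and 0.98 in WT mice for Asb4 (log2). In KO mice the populations were thus closer for these 3 genes. For Fastk the populations were further apart in KO mice (2.42) than in WT mice (-0.36), and for Fgf13 they stood in opposite order (-1.34 in KO mice and 0.44 in WT mice). These gaps restate the difference on which the genes were chosen and are no further result. For Paqr5, Abcg3 and Asb4 all KO myeloid progenitor arrays were under 6.5, as were all KO LSK arrays for Asb4. The sizes of their KO gaps are therefore less certain.

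**Figure D3:**
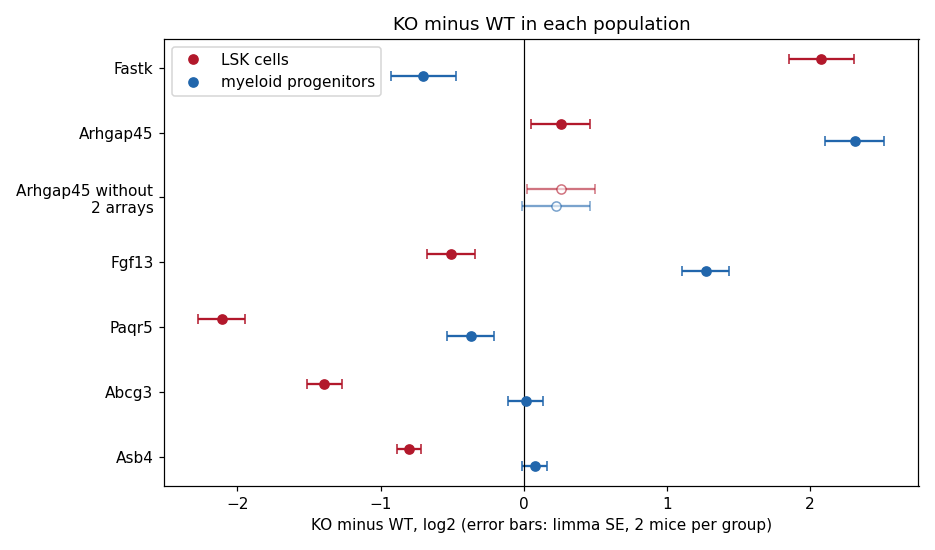
KO minus WT change in log2 (horizontal axis) of each of the 6 genes in LSK cells and in myeloid progenitors, with SE bars from the fit over 8 mice. Open points give Arhgap45 without the 2 low arrays. Fastk lies at 2.08 and -0.70 and Fgf13 at -0.51 and 1.27, while Paqr5, Abcg3 and Asb4 are below 0 in LSK cells and at -0.37, 0.01 and 0.08 in myeloid progenitors.

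All 6 genes are among the 11 of 17741 genes (0.0620%) with an adjusted p under 0.05 in the difference between populations, which follows from how they were chosen. Arhgap45 has the least support of the 6 by p in that comparison, and Jam3, at -1.97 ± 0.31, is the first gene beyond the threshold. Cldn5, a tight junction protein, and Slc35d3, a nucleotide sugar transporter family member, are the 2 others of highest rank, with differences of 3.12 ± 0.34 and -2.12 ± 0.26. No test is drawn from these values.

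The KO minus WT change averaged over both populations, and the LSK minus myeloid progenitor level averaged over both genotypes, have estimates that are orthogonal to the difference in this balanced design. They were tested, but they use the same group values and the same estimate of spread, and the choice of the genes favoured a small one, so that their p-values are too small and give no independent support. Averaged over the populations, 5 of the 6 genes had an adjusted p under 0.05. Over all genes 7.95% did, and nothing is read from the 2 shares side by side. The average was 0.69 ± 0.16 for Fastk (adjusted p = 0.0238) and 1.28 ± 0.15 for Arhgap45 (adjusted p = 0.000445). It was -1.24 ± 0.12 for Paqr5 (adjusted p = 0.000130), -0.69 ± 0.088 for Abcg3 (adjusted p = 0.000905) and -0.36 ± 0.061 for Asb4 (adjusted p = 0.00432). Fgf13 averaged 0.38 ± 0.12, adjusted p = 0.0836.

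These averages do not describe both populations. Fastk changed by 2.08 in LSK cells and by -0.70 in myeloid progenitors, and for Abcg3 and Asb4 the averages come from LSK cells, since the myeloid progenitor changes were 0.01 and 0.08. Of the genes called, Paqr5 alone was lower in KO mice in both populations. The Fastk call was lost without mouse 1, 3, 5, 7 or 8 (0.55 to 0.83 over the 8 mice left out in turn), and once Kdm5d was added to the fit (0.59, adjusted p = 0.139). For Arhgap45 the average was 0.24 ± 0.17, adjusted p = 0.530, without the 2 low arrays, so that 4 of 6 genes passed. With values below 6.5 set to 6.5, Asb4 was the 1 gene of the 6 that passed, and the adjusted p was 0.0577 for Paqr5 and 0.0593 for Abcg3. This setting made all Asb4 arrays outside WT LSK cells equal, so its pass does not mark a firmer result. Fastk had no value under 6.5 and kept its estimate of 0.69, yet its limma call was lost (adjusted p = 0.207).

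Averaged over the genotypes, all 6 genes had an adjusted p under 0.05 in LSK minus myeloid progenitors, as 24.9% of all genes did, and again nothing is read from the shares side by side. Paqr5 averaged 1.90 ± 0.12 (adjusted p = 4.78e-06) and Abcg3 averaged 1.07 ± 0.088 (adjusted p = 2.07e-05), and both were higher in LSK cells in either genotype. Asb4 averaged 0.54 ± 0.061 (adjusted p = 0.000132), which comes from WT mice, since the arrays of the populations overlapped in KO mice. Fastk averaged 1.03 ± 0.16 (adjusted p = 0.000884) and Fgf13 -0.45 ± 0.12 (adjusted p = 0.0172), and for both the WT mice stood in the opposite order to the average. Arhgap45 averaged 1.53 ± 0.15 with all arrays (adjusted p = 4.64e-05), but 0.48 ± 0.17, adjusted p = 0.0595, without the 2 low arrays. The Fgf13 call was lost without mouse 2, 3, 5 or 8 (-0.53 to -0.37 over the mice left out in turn).

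The 6 genes fell into patterns over the 8 mouse means. Pearson's r was 0.98 for Paqr5 with Abcg3, 0.96 for Paqr5 with Asb4 and 0.99 for Abcg3 with Asb4, and between -0.71 and 0.46 for the other 12 pairs, with -0.71 for Fastk with Fgf13. These values describe mice of 4 groups, so r mostly follows the order of the group means, on which the 6 genes were chosen. Among 4986 genes with a range of at least 1 log2 over the mice, those most like Paqr5 were Rasl12, Itga9 and Gcsam (r = 0.99 each), those most like Abcg3 were Asb4 (0.99), Paqr5 (0.98) and Slc16a12 (0.98), and those most like Asb4 were Gas6, Abcg3 and Prkcq (0.99 each). Itga9 encodes an integrin subunit, Gas6 a ligand of the TAM receptor kinases and Prkcq a protein kinase C. The closest to Fastk were Kdf1 (0.94), Tmprss4 (0.93) and Sapcd1 (0.93), and the closest to Fgf13 were Aqp9 (0.90), Exoc4 (0.90) and Sema4d (0.89). Bbc3 (0.98), Fgd1 (0.97) and Galnt12 (0.97) were closest to Arhgap45 with all arrays, and the same genes gave 0.65, 0.74 and 0.66 without the 2 low ones.

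Genes of the same families and pathways were examined in 9 lists, of which 69 of 72 genes were measured. In the difference between populations 10 of the 69 had an unadjusted p under 0.05 in limma, as did 1126 of all 17741 genes, a smaller share. The lists were chosen with earlier results of these data known, so nothing is read from these counts side by side. The median difference was 0.03 in the 69 genes, against 0.01 over all genes, and 0 of the 69 passed after adjustment. The relatives with the largest differences in 8 of the lists therefore carry values but no call. Among the mitochondrial FASTK proteins, Fastkd1 and Fastkd5 gave -0.33 and -0.28. Among the GTPase-activating proteins with an F-BAR domain, Arhgap29 gave -0.96 (adjusted p = 0.183) and Srgap3 -0.57. Fgf12 and Fgf11, the other FGF homologous factors with the largest values, gave 0.27 and 0.07, and the sodium channel subunits Scn4b and Scn1a gave 0.45 and -0.22. For the PAQR receptors Paqr9 gave 0.71 and Paqr8 -0.66, for the ABCG transporters Abcg1 gave -1.34 ± 0.37 (adjusted p = 0.363) and Abcg2 0.57, for the ASB adaptors Asb13 gave 0.74 and Asb18 0.55, and for the cullin 5 ligase core Cul5 gave -0.40 and Elob 0.09.

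Some relatives changed within a population, where 4.64% of all genes were called in LSK cells and 2.64% in myeloid progenitors. In LSK cells 2 of 69 rose and 3 fell, and in myeloid progenitors 1 rose and 2 fell. Asb13, another SOCS box protein, fell in both (-1.56 ± 0.23, adjusted p = 0.00411 in LSK cells, and -2.30 ± 0.23, adjusted p = 0.000695 in myeloid progenitors). Paqr4 rose in both, at 0.77 ± 0.19 (adjusted p = 0.0497) in LSK cells and 0.84 ± 0.19 (adjusted p = 0.0499) in myeloid progenitors, just inside the threshold. Arhgap29 fell by 1.18 on the log2 scale in LSK cells (adjusted p = 0.00182), and Srgap3, a Slit-Robo GTPase-activating protein, fell by 0.98 (adjusted p = 0.0184). Abcg2, a transporter that pumps dyes and drugs out of stem cells, fell by 1.09 in myeloid progenitors (adjusted p = 0.0141). Fgf12 was called higher in LSK cells (0.26 ± 0.061, adjusted p = 0.0365), with means of 6.30 in KO mice and 6.04 in WT mice, both under 6.5.

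**Figure D4:**
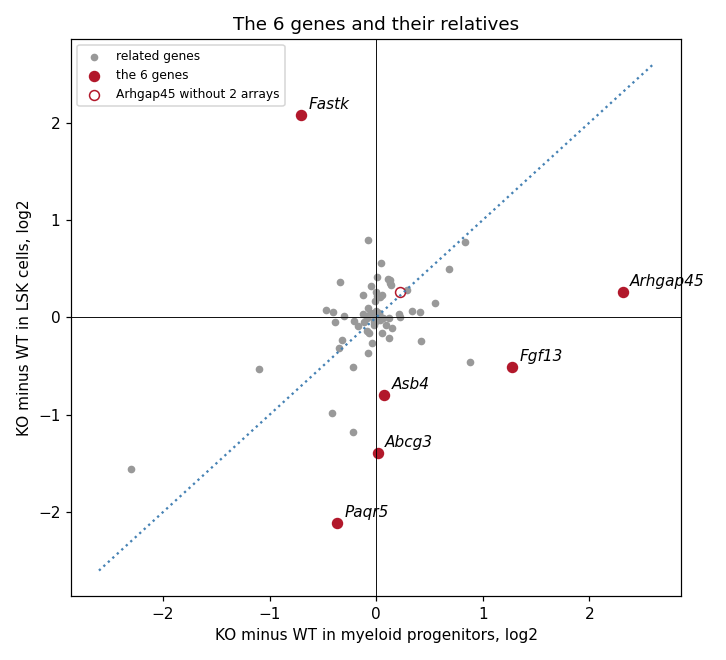
KO minus WT change in LSK cells (vertical axis) against that in myeloid progenitors (horizontal axis), in log2, for the 69 measured relatives (grey) and the 6 genes (red, with Arhgap45 without the 2 low arrays as an open point). The dotted line marks equal change. The grey point at -2.30 in myeloid progenitors and -1.56 in LSK cells is Asb13, and no relative passed the test of the difference.

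The nearest 2 measured genes on each side of every one of the 6 in the RefSeq table, 24 in all, were also taken. In the difference between populations 0 of 24 passed in limma, and the values of the 24 ran from -0.59 to 0.87. An unadjusted p under 0.05 was seen in 2 of the 24 and in 1126 of all 17741 genes. In LSK cells 2 of the 24 were called in limma, where 4.64% of all genes were, and nothing about the loci is read from this count. Abca7, beside Arhgap45, rose (1.11 ± 0.25, adjusted p = 0.0314). Gbp9, beside Abcg3, fell (-0.34 ± 0.080, adjusted p = 0.0402), with means of 6.25 in KO mice and 6.59 in WT mice. In myeloid progenitors 0 of 24 passed in limma, where 2.64% of all genes did. An unadjusted p under 0.05 was seen there in 1 of the 24 and in 2028 of all 17741 genes.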

How the data were processed

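RNA of 8 mice was measured on 24 one-colour Cy5 arrays. Per the labels' protocols, RNA isolated on columns was copied to cDNA, transcribed in vitro with amino-allyl UTP present, and coupled to the dye. The deposited log2 values had nearly equal distributions on all arrays, which points to a normalization between arrays by the authors that these sources do not state, and limma is the tool in the submitters' processing notes. Background correction and scanner are not stated in these sources, and detection could not be judged. No further normalization was done.

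The 3 arrays of a mouse were averaged. A mean for each of the 4 groups was fitted with limma 3.58.1 in R 4.3.3 (empirical Bayes with trend and robust options, 4 residual degrees of freedom), and p-values were adjusted by Benjamini-Hochberg over all 22439 probes at a threshold of 0.05, two-sided. Where a gene had several probes, the brightest stood for it. P-values rest on the spread between the 2 mice of a group, pooled over the 4 groups. That spread was moderated toward the spread of other probes, with a median of 6.909 prior degrees of freedom. The number of mice limits the precision. Of the probes, 18213 matched a current RefSeq symbol, 2126 an older one and 2064 had no symbol.

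The 6 genes, the related lists and the markers were chosen with earlier results of these data known. Beside the 6 genes and the checks Bap1 and Kdm5d, the text names the relatives past the threshold in the difference or else the 2 largest in each list (1 list is not reported here), the 3 genes of highest correlation, the nearest neighbours and the 2 other genes of highest rank by p in the difference. Relatives, neighbours and other genes called in the remaining comparisons were named after their values were seen. Alternatives varied the treatment of arrays, the variance model, low values, centring, the Kdm5d signal and the mice included.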

Additional observations from a re-analysis of the deposited data

Results flagged for a closer look

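In Abcg3, 1 of the 6 arrays stood apart in 2 groups: the highest in KO LSK cells read 6.79, with the other 5 between 6.59 and 6.66, and the highest in WT myeloid progenitors read 6.61, with the other 5 between 6.19 and 6.25. Each set of 6 arrays comes from 2 mice, 24 such sets were examined, and chance sets apart about 1 in 20.

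In 3 genes the KO mice lay on opposite sides of the WT mice in the 2 populations. The difference, LSK minus myeloid progenitors, was 2.78 for Fastk, -1.78 for Fgf13 and -0.88 for Asb4. It was not tested, because the genes were chosen for it. For the same reason nothing is read from the count of 3, and the share of all genes with such an order was not counted. For Asb4 the myeloid progenitor arrays overlapped and were all under 6.5.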

How the results depend on the processing

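The sizes of the 6 genes' differences kept their sign in all 19 alternatives (18 for Asb4, which the filter on a mean of 6.5 removes) except for Arhgap45, at 0.0318 without array 2 of mouse 5 and mouse 6. Leaving out 1 mouse at a time gave 10 to 117 genes in the difference between populations (11 with all mice), 793 to 1476 in the average KO minus WT change, 430 to 968 in LSK cells and 196 to 546 in myeloid progenitors. Without mouse 1 and mouse 5, the 2 with Kdm5d signal, the counts were 49, 735, 331 and 243, and 2668 for the average LSK minus myeloid progenitor level. With Kdm5d as a covariate they were 851 for the average change and 535 in LSK cells, the Fgf13 average passed (0.53, adjusted p = 0.0379), and the Fastk average no longer did (0.59, adjusted p = 0.139). Fitting the 24 arrays singly, with mouse as a random effect, gave 454, 3196, 2671 and 1629, and a replicate block for the array number on top gave 402, 3120, 2570 and 1549. In both of these, 2 of the 69 relatives passed in the difference. Same-numbered arrays of different mice deviated together no more than others. The median r was 0.0057 (from -0.25 to 0.28, over 84 pairs), against 0.0049 (from -0.30 to 0.29, over 168 pairs) for arrays of different number. Such medians cannot show an effect of the array number on single probes, such as the Arhgap45 probe. Without the trend and robust options 0 genes passed in the difference (1292 at an unadjusted p under 0.05), 549 in LSK cells and 288 in myeloid progenitors. Setting values below 6.5 to 6.5 left 5047 probes constant and gave 6, 57, 1568 (populations), 9 and 6. It ended the average KO minus WT call of Fastk (adjusted p = 0.207), Arhgap45 (0.0755), Paqr5 (0.0577) and Abcg3 (0.0593). With those probes left out, an alternative chosen after seeing the data, all 4 of these passed, while 0 of 14245 genes passed in the difference (1040 at an unadjusted p under 0.05).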
